A study of Drosophila melanogaster with 3 samples.

Results

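The binding of CG6765 was described at 10 genes for regulators of the ecdysone and juvenile hormone response, EcR, usp, Eip75B, Eip74EF, Eip78C, ftz-f1, br, Hr39, Hr4 and Kr-h1. They are 10 of the 13945 protein-coding genes on the 6 chromosome arms analysed, and were grouped by their known role. They were chosen with earlier results of these data known, so the shares below describe the set and are no independent test of it. All positions at which the protein gave a peak summit were taken from the gene body and from 2 kb upstream of it, which gave 33 of the 3816 summits of the list thresholded for reproducibility. The same windows held 243 of the 30000 candidate summits called on the pooled replicates, a list that the authors label as peaks and background.

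Chromatin immunoprecipitation followed by sequencing (ChIP-seq) had been done on 3 biological replicates, all of 1 group, of whole Drosophila melanogaster embryos of mixed sex, collected at 0 to 24 h. Every replicate carried the same stable transgene, in which GFP is fused to the C-terminus of CG6765, and no untagged or otherwise different group is among the samples. Only 1 transgenic line was used, the embryos hold mixed cell types and ages, and the labels name GFP as the antibody target in one field and CG6765 in another. A possible control experiment is named and was not analysed here. The signal of a summit is the authors' own value and has no stated unit, so it serves here only to rank summits within a list, with rank 1 the strongest. The lists hold no read numbers, and the depth behind each summit is unknown.

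In insects, pulses of the steroid 20-hydroxyecdysone drive molting and metamorphosis, and a pulse also occurs in mid-embryogenesis. The hormone binds a heterodimer of the nuclear receptors EcR and Ultraspiracle (usp), which switches on early genes for transcription factors, among them Eip75B, Eip74EF, Eip78C and br, and these act on further genes. The nuclear receptors Hr4, ftz-f1 and Hr39 act in the cascade that follows, and Kr-h1, a zinc finger protein, is the classic target of juvenile hormone, which holds back metamorphosis.

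The genomic sequence around the strongest intronic summits of Eip75B and Hr4, the strongest Eip75B start-site summit, a ftz-f1 intronic summit that all replicates shared, and the strongest Kr-h1 summit is printed because the results below turn on these sites. Each is the plus strand of dm6, read from the RefSeq Release 6 genome and centred on the summit, except that the one at the RC start is trimmed so that it holds at most 30 bases of 5' UTR. Capitals mark the searched words GAGAG (or CTCTC, the same word on the other strand), bound by the GAGA factor, and CACGTG, the E box.
Eip75B intron, chr3L:18019778-18019878: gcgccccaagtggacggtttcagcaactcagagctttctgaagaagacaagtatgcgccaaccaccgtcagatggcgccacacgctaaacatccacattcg
Eip75B RC start site, chr3L:17999792-17999864: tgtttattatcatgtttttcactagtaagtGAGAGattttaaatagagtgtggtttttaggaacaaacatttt
Hr4 intron, chrX:1951869-1951969: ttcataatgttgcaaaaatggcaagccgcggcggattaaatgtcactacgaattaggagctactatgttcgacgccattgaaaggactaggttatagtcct
Hr4 second intronic summit, chrX:1963898-1963998: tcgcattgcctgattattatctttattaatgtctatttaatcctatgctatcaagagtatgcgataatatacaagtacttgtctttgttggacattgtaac
ftz-f1 intron, chr3L:18789716-18789816: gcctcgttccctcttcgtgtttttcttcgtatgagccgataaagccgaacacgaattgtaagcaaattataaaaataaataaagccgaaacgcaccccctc
Kr-h1 intron, chr2L:6088422-6088522: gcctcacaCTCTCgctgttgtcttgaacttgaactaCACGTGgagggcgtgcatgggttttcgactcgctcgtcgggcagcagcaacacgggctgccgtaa

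Of the 10 genes, 8 held at least 1 thresholded summit, against 24.6% of all protein-coding genes. Long genes held summits more often than others, and most of the regulators are long. Of the 8 regulator genes of 20 kb or more, 7 held a summit, beside 52.2% of all protein-coding genes of 20 kb or more. The 20 kb floor does not match lengths: the median was 55680 bp for the 10 regulators and 37010 bp for all genes above it. Eip75B held 9 summits, ftz-f1 8 and Hr4 7, and these genes carried 24 of the 33 summits (72.7%). EcR and Kr-h1 held 3 each, and Eip78C, br and Hr39 held 1 each. The genes usp and Eip74EF held none.

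Per length, the regulators had 5.87 thresholded summits per 100 kb summed over their windows. The value was 4.15 over the windows of all protein-coding genes, 2.37 over those of 20 kb or more and 2.85 over the 6 arms. Where gene windows overlap, the sums over genes count a summit more than once. Kr-h1, ftz-f1, Hr4 and Eip75B had 18.9, 15.2, 10.3 and 7.78 per 100 kb, and each of the other regulators had 4.09 or fewer. The median over the 10 genes was 3.85 per 100 kb, beside a median of 1.10 for the long genes. Of the pooled candidates in the windows, 33 of 243 (13.6%) were thresholded, close to the 12.7% of all candidates. The median candidate density was 48.0 per 100 kb over all 10 regulators, against 24.4 for all protein-coding genes and 23.5 for the long genes. The 10 include usp (54.4) and Kr-h1 (75.5), which are shorter than 20 kb.

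**Figure D1:**
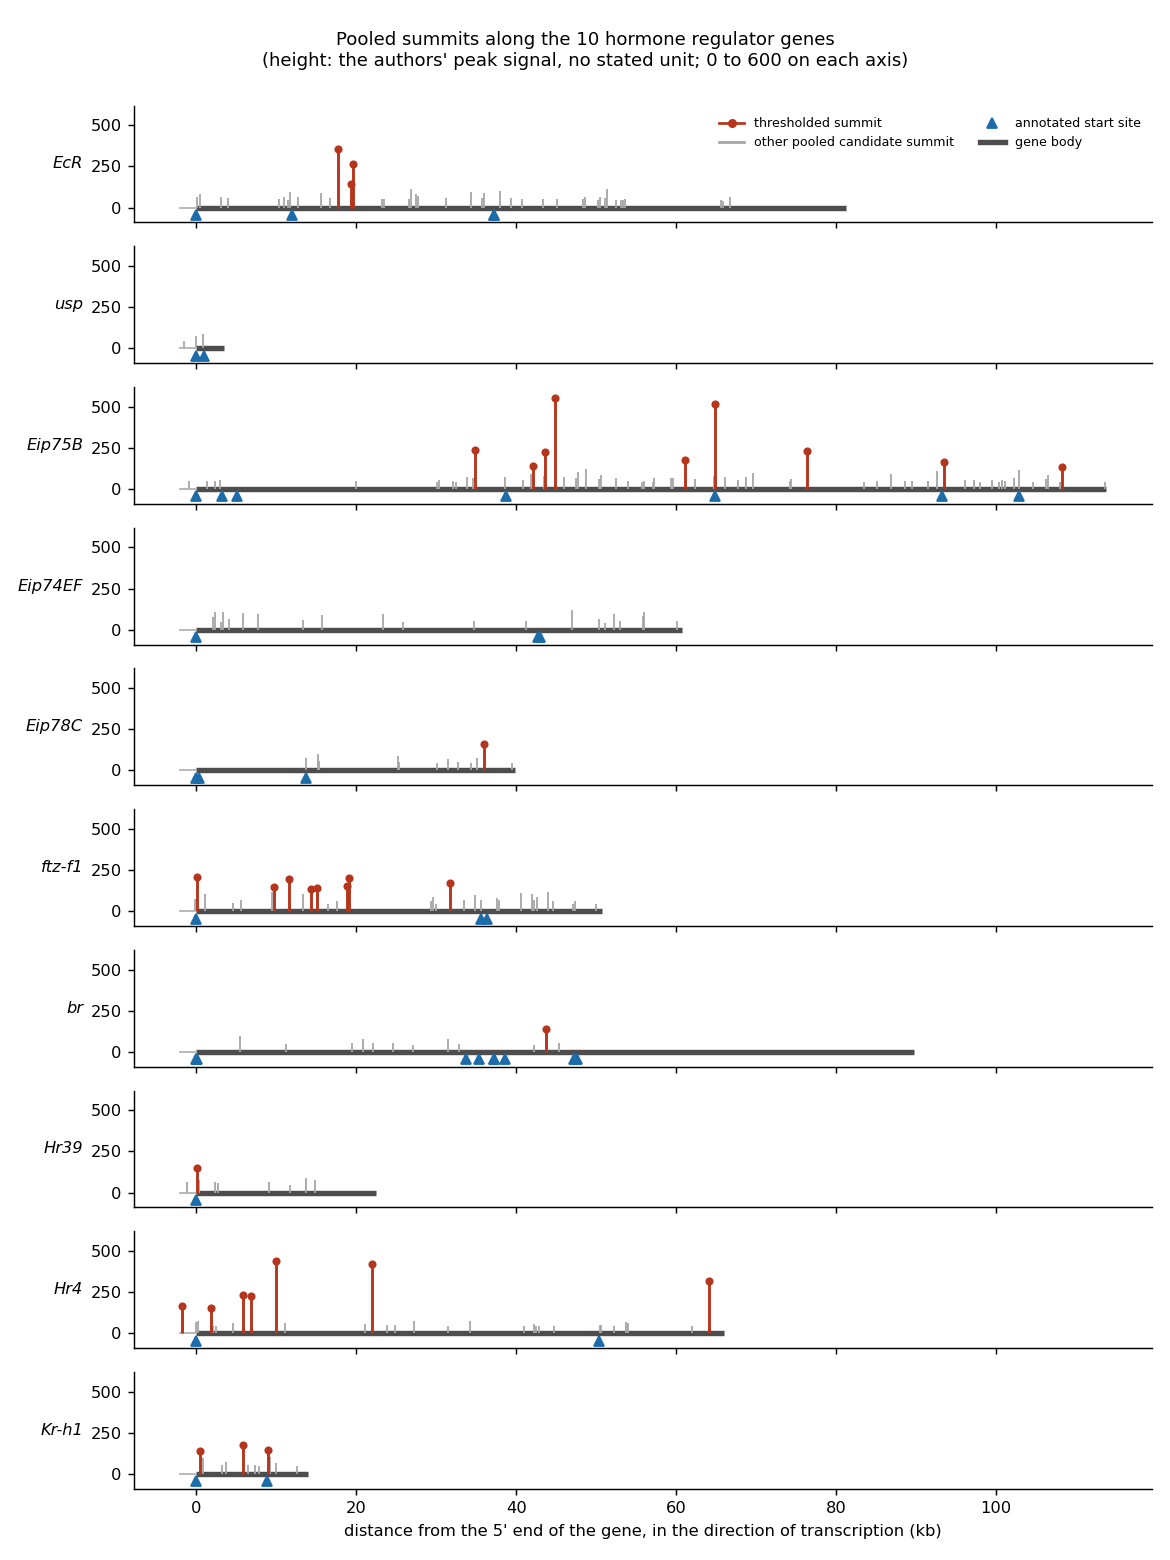
Maps of the 10 genes, drawn in the direction of transcription, with distance from the gene start in kb on the x axis and the authors' pooled signal (no stated unit) on the y axis. Red points are thresholded summits, grey lines other candidates and blue triangles annotated start sites. Eip75B, ftz-f1 and Hr4 carry 24 of the 33 thresholded summits, while usp and Eip74EF carry none.

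**Figure D2:**
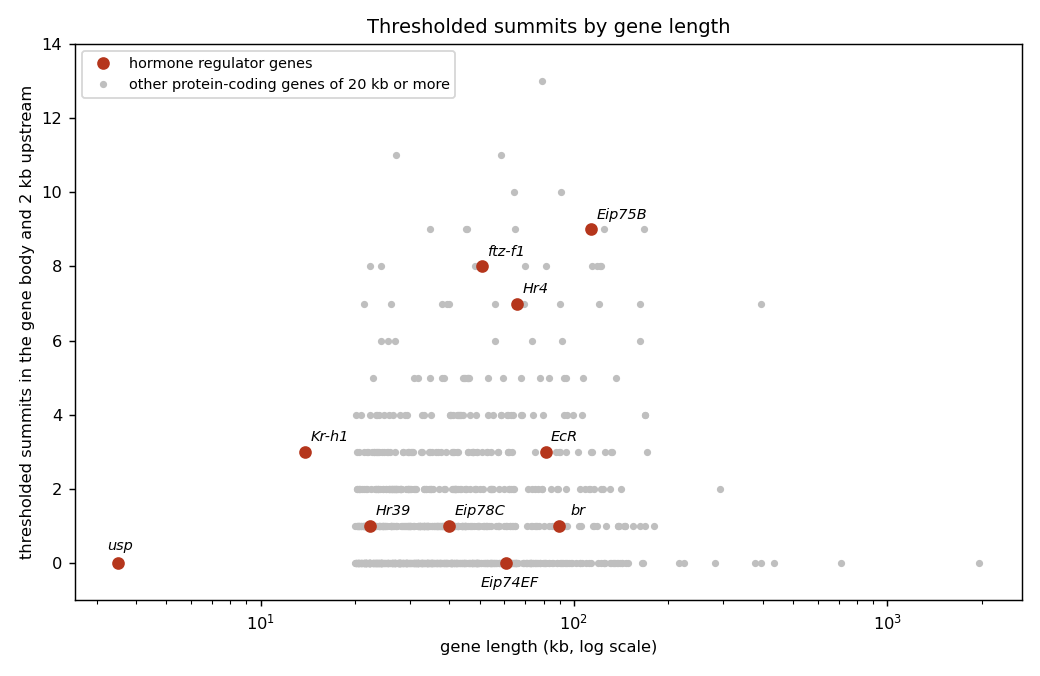
Number of thresholded summits in the gene body and 2 kb upstream (y axis) against gene length in kb (log x axis) for the 10 regulator genes in red and other protein-coding genes of 20 kb or more in grey. Eip75B, ftz-f1 and Hr4 lie at 7 to 9 summits, while the other regulators lie at 0 to 3.

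At the receptor genes, thresholded summits lay within introns of EcR, and none lay in the window of usp. The usp window is short, 5.51 kb beside 83.2 kb for EcR. EcR (FBgn0000546; 2R, 6087873 to 6169087, minus strand, dm6; 81.2 kb) had 42 candidates and 3 thresholded summits, all intronic. The strongest, at 6151402, had a signal of 358 and pooled rank 588, and ranked 1105, 464 and 511 in replicates 1, 2 and 3. A second summit at 6149553, with signal 264 and pooled rank 1038, ranked 822, 1644 and 968. Both were thus among the strongest 3816 of every replicate. The weakest, at 6149767, had pooled rank 3408 and ranked 4062 in replicate 1 and 12082 in replicate 2. Its closest replicate 3 summit, 147 bp away with rank 968, is the one already matched to the summit at 6149553. All 3 lie 5727 to 7576 bp downstream of the start shared by EcR-RD and EcR-RE, and the nearest start of any gene to each is that of tRNA:Asn-GTT-1-1, from 1274 to 3123 bp away. Not one of the 4 EcR start sites had a thresholded summit within 500 bp. The gene usp (FBgn0003964; X, 2038798 to 2042311, minus strand; 3.51 kb) had 3 candidates, the best with signal 85.8 and pooled rank 8311, well below the last thresholded rank of 3816. In the replicates it had 4, 3 and 4 candidate summits and none among the strongest 3816. Its nearest thresholded summit, with pooled rank 88, lies 5968 bp outside the window, at the start of moody.

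Eip75B, which encodes a heme-binding nuclear receptor, held the most summits of the 10 genes. The gene (FBgn0000568; 3L, 17950953 to 18064696, minus strand; 114 kb) held 67 candidates and 9 thresholded summits, and only 5 of all protein-coding genes held more. Per length it stood lower, with 7.78 per 100 kb, at percentile 88.4 among genes of 20 kb or more. Counting each replicate's own 3816 strongest summits gave 8, 14 and 9 in replicates 1, 2 and 3 (10.3 ± 3.21, SD, n = 3). The strongest summit, at 18019828, is intronic, lies 6204 bp downstream of the RG start and had a signal of 553 and pooled rank 224. It ranked 565, 235 and 162 in the 3 replicates. Next came the summit at 17999814, only 7 bp from the RC start, with signal 515 and pooled rank 280, and ranks of 206, 268 and 492. None of these ranks is beyond 565, so the intron and the RC start were both among the strongest sites of every replicate.

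Of the others, the intronic summits at 17988351 (signal 234), 18021053 (signal 226) and 18029810 (signal 237) had pooled ranks of 1324, 1408 and 1288, and each was within the strongest 3816 of all replicates. The RA start carried a summit 161 bp away at 17971278, with signal 163 and pooled rank 2608, which ranked 2344 in replicate 2 and 2026 in replicate 3 and was not found within 100 bp in replicate 1. At the RD start, 1 candidate at 17961791 stayed below the threshold, with pooled rank 5056, although it ranked 3741 in replicate 2 and 3815 in replicate 3. The remaining 3 summits, at 17956436, 18003615 and 18022653, were weaker, with signals of 134.9 to 176.0. The summit at 17956436, with pooled rank 3803, lies just inside the threshold, and the best Eip75B candidate outside it, at 18016003, had signal 122.0 and pooled rank 4514. Of the 9 summits, 8 were found in all replicates, 7 were intronic and 2 lay at start sites.

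The other early genes had 1 summit or none. Eip74EF (FBgn0000567; 3L, 17558672 to 17619325, minus strand; 60.7 kb), which encodes an ETS-domain factor, had 21 candidates, the best with signal 120.2 and pooled rank 4651, and none was thresholded. Its window gave 0, 1 and 1 of the strongest 3816 summits in replicates 1, 2 and 3. Thresholded summits lie just beyond both ends of the window. One, at 17621764, is 439 bp outside and 60 bp from the start of anchor, and the other, at 17557600, is 1072 bp outside and 188 bp from the start of CycT. The first ranked 3197, 25664 and 1357 in the replicates, while the second, with pooled rank 638, ranked 646, 1494 and 309. Extending the upstream window to 5000 bp assigns the anchor summit to Eip74EF, so the absence of a summit there depends on where the window ends.

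Eip78C (FBgn0004865; 3L, 21226609 to 21266503, plus strand; 39.9 kb), a nuclear receptor gene, had 12 candidates and 1 thresholded summit at 21262529. It is intronic, 22182 bp downstream of the RB start, with signal 162 and pooled rank 2656, and ranked 2600, 3597 and 2971 in the replicates. Broad, br (FBgn0283451; X, 1575132 to 1664869, plus strand; 89.7 kb), encodes BTB zinc finger proteins that specify pupal development. It had 13 candidates, or 14.2 per 100 kb, below the median of 23.5 for long genes, and 1 thresholded summit at 1618813 with signal 141 and pooled rank 3484. That summit ranked 2740, 4799 and 7099 in the replicates, so 1 of 3 replicates placed it among its strongest 3816. It lies 658 bp from the start of Mur2B, a gene on the other strand that overlaps br, and 3495 bp from the nearest br start, RS. None of the 9 br start sites had a pooled candidate within 500 bp.

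At ftz-f1, an orphan nuclear receptor gene known both as a partner of the pair-rule protein Ftz and as a competence factor for later ecdysone pulses, the summits were many and of middling strength. The gene (FBgn0001078; 3L, 18750607 to 18801309, minus strand; 50.7 kb) had 33 candidates and 8 thresholded summits, with 13 genes holding more, and 15.2 per 100 kb, at percentile 97.4 among genes of 20 kb or more. Each replicate's own strongest 3816 gave 9, 6 and 5 summits in replicates 1, 2 and 3 (6.67 ± 2.08, SD, n = 3). Pooled signals ran from 135.2 to 204.9. The highest was 49 bp from the RB start, at 18801260, with pooled rank 1700, and ranks of 1261, 9556 and 1399, so its rank in replicate 2 stands apart. The summit at 18789766 had signal 193 and pooled rank 1922, and was the sole one of the 8 to rank in the strongest 3816 of every replicate, at 1941, 2748 and 1913. Only the summit at 18769619 lies outside lncRNA:CR45939, a non-coding gene that overlaps the other 7.

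The recurrence of the ftz-f1 summits depends on the distance allowed. With 100 bp, only 2 of 8 were found in every replicate, and 5 were absent from replicate 3. For 4 of these 5 the closest replicate 3 summit lies 102 to 193 bp away, with ranks of 1284 to 18712, and with 200 bp allowed 7 of 8 have one in replicate 3, or 6 of 8 where each replicate 3 summit may be used once. The remaining one, at 18786211, has none nearer than 992 bp.

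Hr4, an orphan nuclear receptor gene that acts as a repressor in the ecdysone cascade, held strong intronic summits. The gene (FBgn0264562; X, 1941940 to 2007956, plus strand; 66.0 kb) had 31 candidates and 7 thresholded summits, with 23 genes holding more. The own strongest 3816 of replicates 1, 2 and 3 gave 6, 8 and 6 summits (6.67 ± 1.15, SD, n = 3). The intronic summit at 1951919 had signal 441 and pooled rank 393 and ranked 642, 372 and 295. The one at 1963948, 22008 bp from the first start, had signal 419 and pooled rank 445 and ranked 466, 355 and 641. These are the strongest summits after the 2 of Eip75B, and their order differs between replicates. Another strong site, at 2006013, lies in the 3' UTR, with signal 317 and pooled rank 722, and ranked 1371, 632 and 893. It is the only one of the 33 outside introns and start sites.

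The intronic summits at 1947793 and 1948719 had signals of 232 and 225, and both ranked within the strongest 3816 of every replicate. By contrast, the summit at 1943768 had signal 155 and pooled rank 2917, ranked 1759 in replicate 2 and 10608 in replicate 3, and was not found in replicate 1. The summit at 1940098 lies 1842 bp upstream of Hr4 and 58 bp from the start of CG3857. No replicate had a summit within 100 bp of it, but each had one 120 to 150 bp away, with ranks of 3767, 3620 and 1882, and these are also within 100 bp of a pooled candidate at 1940305 that stayed below the threshold. Neither Hr4 start site carried a thresholded summit within 500 bp. Hr39 (FBgn0261239; 2L, 21237250 to 21259675, plus strand; 22.4 kb), a nuclear receptor gene related to ftz-f1, had 9 candidates and 1 thresholded summit, 57 bp from its single start. That summit, at 21237307, had signal 152 and pooled rank 3041 and ranked 6657, 5451 and 1843, so only replicate 3 placed it among its strongest 3816.

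Kr-h1, the juvenile hormone target, had 3 thresholded summits in a gene of 13.9 kb (FBgn0266450; 2L, 6082603 to 6096498, plus strand). Its 12 candidates correspond to 75.5 per 100 kb, the highest density among the 10 genes, over a short window. The strongest summit, at 6088472, is intronic, 2940 bp upstream of the RB start, with signal 173 and pooled rank 2347, and ranked 2950, 2790 and 2093. The summit at 6091582, 170 bp from the RB start, had signal 143 and pooled rank 3380 and ranked 3306, 7382 and 2370; that start is shared with CG45075, a nested gene. The third, at 6083091, lies 488 bp from the RA start, with pooled rank 3633, and within 100 bp it was matched only in replicate 2, at rank 11152. The closest summits of the other replicates lie 144 bp away in replicate 1, with rank 6365, and 135 bp away in replicate 3, with rank 2178. All 3 rank beyond the strongest 1908 thresholded summits, and 1 of them is among the strongest 3816 of every replicate.

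**Figure D3:**
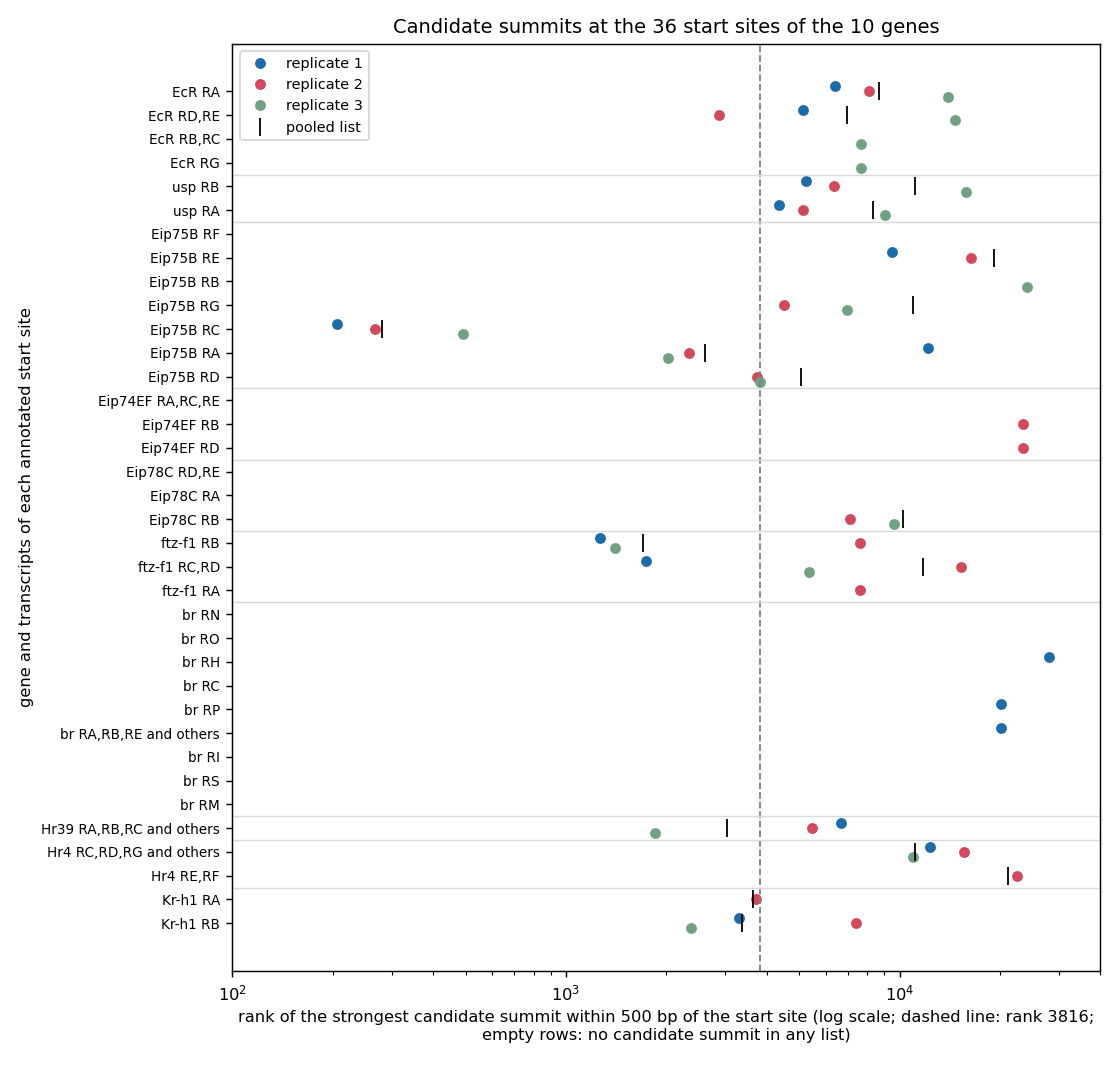
Rank of the strongest summit within 500 bp of each annotated start site of the 10 genes, on a log x axis, in the 3 replicate lists (coloured points) and the pooled list (black ticks), with rows for start sites and a dashed line at rank 3816. The RC start of Eip75B, at pooled rank 280, is the strongest, and the br start sites have no pooled summit.

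Of the 36 start sites of the 10 genes, 6 (16.7%) had a thresholded summit within 500 bp, against 16.1% of all start sites of protein-coding genes. These were the RA and RC starts of Eip75B, RB of ftz-f1, the Hr39 start, and RA and RB of Kr-h1. Counting candidates, 17 of 36 (47.2%) had a summit, against 50.0% of all start sites, so the regulators' start sites were near the background on both counts. The strongest summit within 500 bp of a start site sometimes ranked far higher in a replicate than in the pooled list. At the EcR-RD and EcR-RE start it ranked 2875 in replicate 2, beside pooled rank 6974. At the ftz-f1-RC and ftz-f1-RD start it ranked 1734 in replicate 1, beside pooled rank 11727. Neither replicate summit had a pooled candidate within 100 bp, so by the matching used here the compared summits are not the same.

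Most of the regulators' summits lay away from start sites. By class, 7 of 33 (21.2%, Wilson 95% interval 10.7% to 37.8%) lay within 500 bp of any annotated start, against 56.7% of all thresholded summits and 39.4% of those in genes of 20 kb or more. Introns held 25 of 33 (75.8%, 59.0% to 87.2%), against 55.2% of the other thresholded summits in long genes and 31.5% of all other thresholded summits. The intervals cover counting only, and summits of 1 gene are not independent. Among candidates below the threshold, 31 of 210 of the regulators' (14.8%) were at start sites and 165 (78.6%) in introns, against 16.9% and 74.6% of the others in long genes. The distance to the nearest start of the gene itself had a median of 5727 bp, and 27 of the 33 lay beyond 1000 bp of it. For 22 of 33 no other gene had a start nearer than the gene's own, counting 2 Kr-h1 summits nearest to the start shared with CG45075.

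In signal the regulators' summits lay within the range of the others. Their median was 173 (134.9 to 553), against 193 (134.6 to 2699) for the other thresholded summits and 187 for those in long genes. Of the 33, 14 (42.4%) were among the 1908 strongest thresholded summits, against 46.6% of the others in long genes, and 6 (18.2%) among the 954 strongest, against 22.9%. Those 6 were the strongest EcR summit, 2 in Eip75B and 3 in Hr4.

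**Figure D4:**
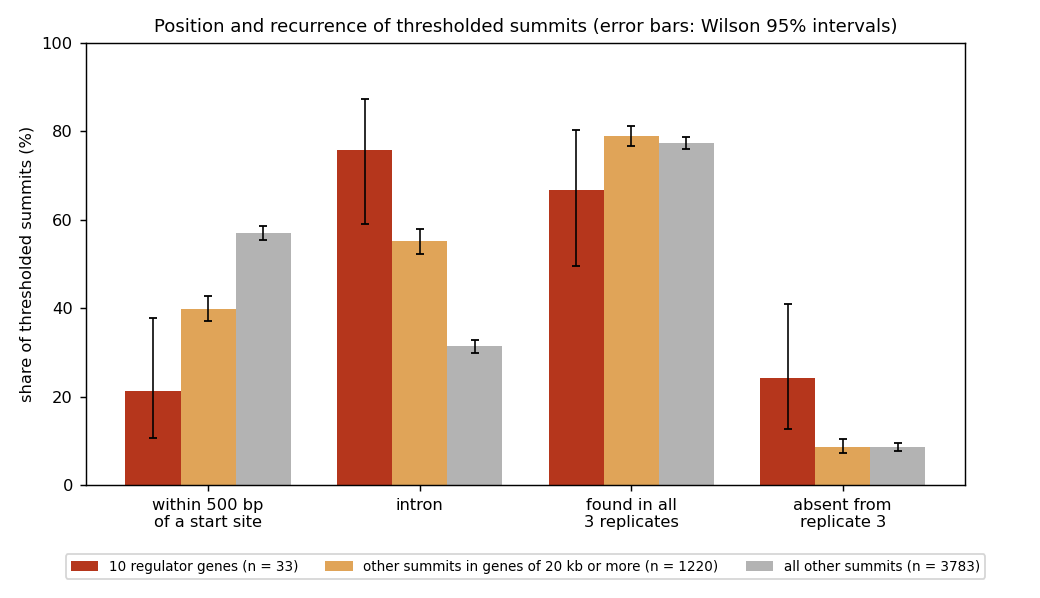
Share (%) of thresholded summits within 500 bp of a start site, in introns, found in all 3 replicates, and absent from replicate 3, for the 33 summits of the 10 regulator genes, 1220 others in genes of 20 kb or more and all 3783 others. Error bars are Wilson 95% intervals. The regulators' bar is lower for start sites (21.2%) and higher for introns (75.8%).

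Because the thresholded list was derived from the replicate lists, the presence of a summit in them is not independent support. With 100 bp allowed, 22 of 33 regulator summits (66.7%, 49.6% to 80.3%) had a summit in every replicate, against 77.3% of all thresholded summits. In the strongest 3816 of each replicate were 15 of 33 (45.5%), against 40.2% of all other thresholded summits and 38.2% of those in long genes. Replicate 1 lacked 5 summits, replicate 2 lacked 1, and replicate 3 lacked 8 (24.2%), against 8.7% of all thresholded summits in replicate 3. Of those 8, 5 are in ftz-f1, and 1 each in EcR, Hr4 and Kr-h1. Median ranks of those found were 2354, 1968 and 1913 in replicates 1, 2 and 3. These medians are over different sets, of 28, 32 and 25 summits, and do not show that the replicates ranked single summits alike. The weakest ranks were 11830, 12082 and 14152. With 200 bp allowed, 30 of 33 were found in every replicate, against 92.2% of all thresholded summits. Some replicate summits are then matched to a pair of neighbouring thresholded summits, and with each used once the count was 28 of 33, against 89.4% of all. In replicate 3 alone, 32 of 33 had a summit within 200 bp, and 30 with each used once. Over all 3816 thresholded summits these counts were 3714 and 3670, so most absences from replicate 3 depend on the 100 bp limit.

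**Figure D5:**
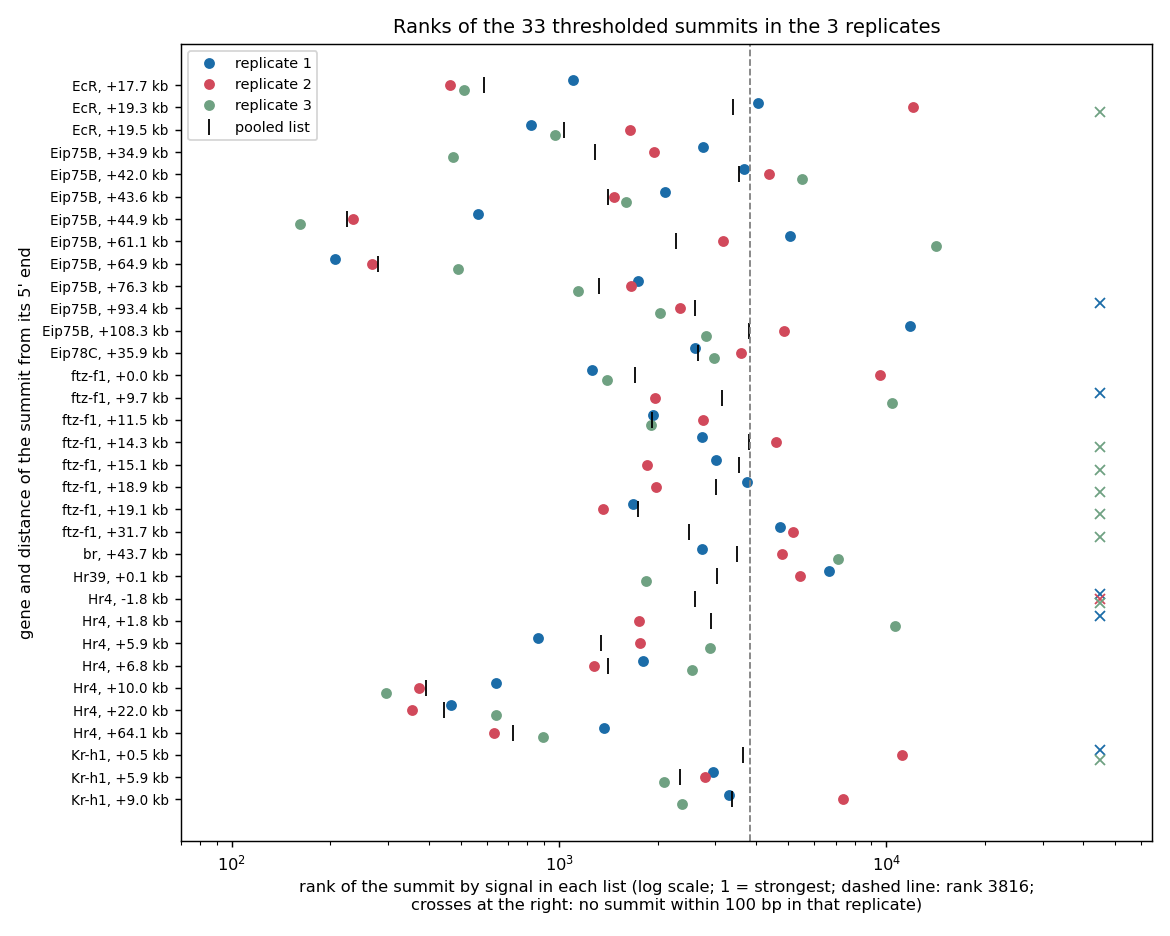
Rank (log x axis, 1 the strongest) of a summit within 100 bp of each of the 33 thresholded summits, grouped by gene, in replicates 1 to 3 (coloured points) and in the pooled list (black ticks); crosses at the right mark replicates with no such summit. Replicate 3 has 8 crosses, 5 of them in ftz-f1.

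Within 50 bp of the summits, 7 words were searched on both strands, none of which contains another. The shortest of them, GAGAG, was the most frequent, as it was among the other thresholded summits and the candidates below the threshold. It was present at 7 of 33 summits (21.2%, 10.7% to 37.8%), against 13.4% of the other thresholded summits and 12.8% of candidates below the threshold. The 7 are 3 in Eip75B, and 1 each in EcR, ftz-f1, Hr4 and Kr-h1. AGGTCA, the core word bound by nuclear receptors, was at 2 of 33 (6.06%, 1.68% to 19.6%), both in Eip75B. It was at 1.69% of the other thresholded summits and 2.2% of candidates below the threshold. CACACACA was at 3 (9.09%, 3.14% to 23.6%), against 2.22% of the other thresholded summits and 3.76% of candidates below the threshold. CACGTG was at 1, in the Kr-h1 summit printed above, against 1.08% of the other thresholded summits. The words TATCGATA (the DNA replication-related element), CAGGTAG (Zelda) and TGAGTCA (AP-1) were at none of the 33. They were rare among the other thresholded summits too, at 1.40%, 0.40% and 1.11%. A share of 0 of 33 allows up to 10.4%, and the absence of a word says only that these letters are not in this window. The median GC content over 101 bp was 42.6%, against 36.6% for the other thresholded summits and 42.6% for candidates below the threshold. Among the regulators it ran from 20.8% in ftz-f1 to 61.4% in EcR.

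Other genes of the hormone pathways, taken from 4 lists that excluded the 10, held a thresholded summit in 24 of 65 matched genes (36.9%), set beside the same 24.6% of all protein-coding genes. Those lists, like the 10 genes, were chosen with earlier results of these data known. Long genes held summits more often, and of the 17 listed genes of 20 kb or more 10 held one. The share was 52.2% for all protein-coding genes of 20 kb or more. Receptors and cofactors outside the 10 had one in 11 of 17 genes, and in 5 of their 7 genes of 20 kb or more. The strongest were Hr3, a nuclear receptor gene of the same cascade, with signal 705 and replicate ranks of 97, 165 and 157, and gce, a juvenile hormone receptor gene, with signal 680.5 and ranks of 144, 189 and 122. The nearest start was that of CG46321 for the Hr3 summit, 7900 bp away, and of asRNA:CR44429 for the gce summit, 292 bp away. Hr78 had signal 453, Smr, a corepressor gene, 390, and Hnf4 340, so these exceed all summits of ftz-f1 and Kr-h1. In ecdysone synthesis, uptake and breakdown, 2 of 16 genes had one, Oatp74D, which encodes an ecdysone importer, with signal 169 and mld with 160. Juvenile hormone synthesis and breakdown had 3 of 8, among them Jheh1 with 289 and Jheh3 with 173. Other responsive genes had 8 of 24, led by chinmo with 414, Ldh with 399.5, Eip63F-1 with 323, Eip63E with 242 and dre4 with 225.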

How the data were processed

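The peak lists of 3 ChIP-seq replicates were used as deposited, on dm6. Per the descriptions deposited with each sample, the authors made a candidate list for each replicate, 1 for the pooled replicates, and a thresholded list derived from these, each called against a control; the aligner, caller, versions and cutoff used were not given in the sources used here. The authors give each peak a signal of no stated unit, a −log10 q-value and a summit offset. The deposited signal was used only to rank within a list, and the authors' −log10 q-value was copied and not used to rank. The thresholded peaks were tested to be the 3816 pooled candidates of highest signal. Read depth is unknown, so intervals cover counting only.

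Gene models came from Ensembl release 115 (BDGP6.54), whose coordinates are those of dm6. A summit was assigned to every gene whose body or 2000 bp upstream held it, and to the first matching class of promoter (within 500 bp of any start site), UTR (5' before 3'), exon (coding before non-coding), intron or intergenic. Summits within 100 bp were matched between lists. Shares have Wilson 95% intervals. With 1 group and no control among the samples, no hypothesis test was run. The 10 genes and the other gene lists were chosen with earlier results of these data known. All 10 are named with their thresholded summits; other hormone genes are named by highest signal, at most 5 a list, except 1 that is not reported here; any further gene is named for the start site nearest to a described summit. Counting and matching were tested on simulated data. Alternatives changed the window, the threshold, the assignment rule, the matching distance, the start-site distance and the replicates used. Python 3.11.15, pandas 2.3.3, numpy 2.4.6, scipy 1.17.1 and matplotlib 3.10.9 were used.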

Additional observations from a re-analysis of the deposited data

How the results depend on the processing

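Of 34 alternative values for the 5 main counts, 29 stayed within 1.5 times the reported value. Some of these settings, such as a wider window or a larger matching distance, could only keep or raise a count. Keeping only the 1908 strongest thresholded peaks left 14 summits in 4 of the 10 genes, of which 13 were found in all replicates and 2 lay at a start site. Assigning each summit to the gene of the nearest start site left 20 summits, with a start shared by 2 genes given to 1 of them by name order, and 22 when it was counted for each. That count and the matching with each replicate summit used once, which gave 22 within 100 bp and 28 within 200 bp, were chosen after seeing the data. Leaving out 1 replicate at a time gave 22 to 28 summits found in all the remaining replicates, a count that this change could not lower. Of 70 counts for single genes, 47 stayed within 1.5 times and 23 did not. No paired analysis was possible because all samples form 1 group. Read depth is unknown, only 1 transgenic line was used, and no control list was analysed here, so the share of these summits that untagged embryos would give was not tested. Positions within whole embryos do not tell which cells were bound.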

Other observations

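Each replicate also ranked summits among its own strongest 3816 inside the gene windows that lay more than 100 bp from every thresholded summit. Replicate 1 had 8 of these among its 31 summits in the windows, replicate 2 had 13 of 35 and replicate 3 had 12 of 32, and 5, 9 and 9 of them lay beyond 200 bp. The highest ranked in replicate 3 was at 18800278 in a 5' UTR within ftz-f1, rank 1238, beside rank 20498 in replicate 2 and none in replicate 1. In EcR, a summit at 6117715 ranked 1631 in replicate 3 and 17535 in replicate 1, and was not found in replicate 2. In ftz-f1, a site at 18757249 ranked 1627 in replicate 1 and 3539 in replicate 3, and was not found in replicate 2. In Eip75B, a site at 18003488 ranked 1331 in replicate 1 and 2150 in replicate 2, and lies 127 bp from a thresholded summit. The Eip78C window held a summit at 21251824 that ranked 2379 in replicate 1 and was within 100 bp of no summit of the other replicates. These summits were chosen after their values were seen.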
